A study of Gallus gallus with 12 samples.

Results

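The 116 genes described here were at lower levels in chicken interdigital tissue after 12 h with a Noggin bead than after the same time with a bead of phosphate-buffered saline (PBS), by a factor of between 2 and 4 on the log2(CPM + 1) scale. They were chosen from 30108 gene rows on the values of 10 libraries, 5 with Noggin and 5 with PBS, numbered 1 to 5 in the sample titles. A gene was taken if all 5 Noggin libraries lay below all 5 PBS libraries, if the mean of log2(CPM + 1) differed by more than 1 and at most 2 between the groups, and if its mean over the 10 libraries was at least 5 CPM. CPM are the reads of a gene per 1000000 reads of its library. Of the 30108 rows, 10195 reached a mean of 5 CPM and are the genes against which the 116 are read below.

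Bone morphogenetic proteins (BMPs) are secreted signals that bind paired receptors on the cell surface and act through SMAD transcription factors in the nucleus. Noggin is a secreted antagonist that holds BMPs away from their receptors. In the limb bud, BMP signalling between the forming digits is known as a trigger of the programmed cell death that frees the digits, and it also takes part in cartilage formation.

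The tissue was interdigital region 3 of the chicken hindlimb. Beads soaked in Noggin or in PBS were implanted at Hamburger-Hamilton stage 30 into opposite limbs, and the region was dissected 12 h later. Both groups therefore carried a bead, and they differed in what it had been soaked in. Strain, sex and age beyond the stage are not stated in the labels, nor is whether a library came from 1 embryo. There were 6 libraries per group, of 1624309 to 3513398 reads each. The comparison asks which transcript levels in this tissue differ when BMPs are blocked.

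Genes are listed by Ensembl identifier and without symbols, and 0 of the identifiers could be matched to the reference gene table used here. No member is therefore named by function or position, the tissue could not be checked against marker genes, and pathway or cell type lists could not be applied. A total of 2 members are given by identifier, the most abundant and the one with the largest fall, and others by their rank in abundance among the 116.

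The libraries numbered 6 go against their labels in these genes, and this bears on every value that includes them. The library labelled Noggin 6 lay near the PBS libraries and the library labelled PBS 6 near the Noggin libraries. The rule left both out. They are given throughout as "labelled Noggin 6" and "labelled PBS 6". The labels alone assign them to a group, and whether they were exchanged was not tested.

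Together the 116 genes made up 0.391% to 0.524% of the reads in Noggin 1 to 5 and 1.15% to 1.34% in PBS 1 to 5, so that their summed level separated the groups in numbers 1 to 5. With Noggin the sum was 4416, 4264, 4707, 3911 and 5242 CPM in libraries 1 to 5. With PBS it was 11491, 11999, 12262, 12410 and 13447 CPM. These sums had to separate, because the same libraries chose the genes, so they are a description and no test is given. The group means were 4508 ± 501 CPM for the Noggin libraries and 12322 ± 720 CPM for the PBS libraries (SD, n = 5 each). The PBS sum was 2.57 to 3.17 times the Noggin sum of the same number, highest in number 4, where the Noggin sum was the lowest. Both libraries numbered 5 had the highest sum of their group. The 10 most abundant members supplied 59.4% of the Noggin sum and 62.6% of the PBS sum on average. Without those 10, the sums were 1692 to 1979 CPM with Noggin and 4125 to 5088 CPM with PBS. In whole tissue, fewer cells of a type that carries these transcripts and less of the transcripts per cell cannot be told apart.

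**Figure D1:**
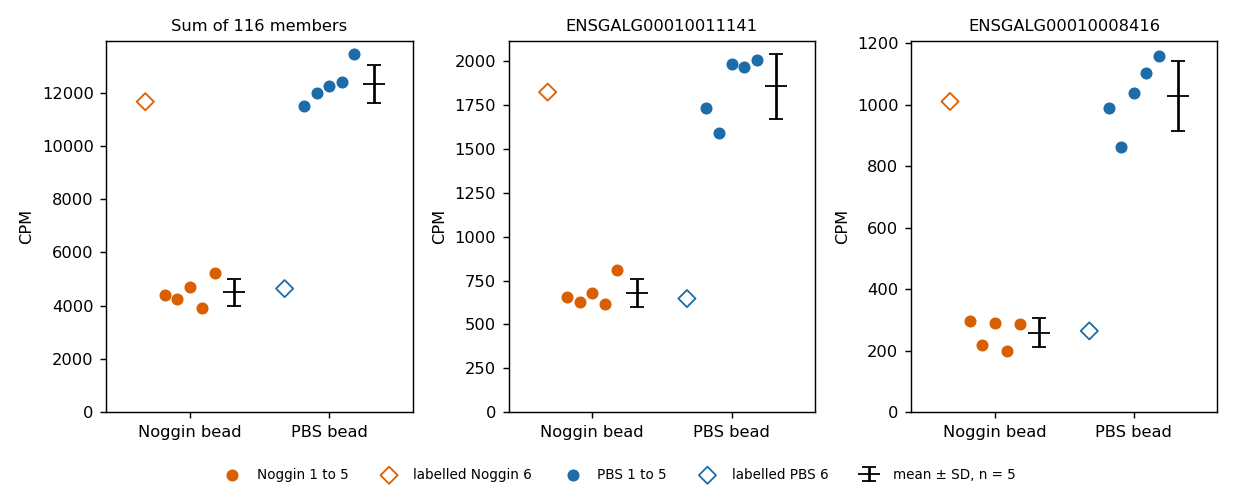
Level in CPM (vertical axes, from 0) of the sum of the 116 members and of the 2 members given by identifier, in each library; filled points are libraries 1 to 5 of each group in numerical order from left to right, open diamonds the libraries labelled 6, and bars the mean ± SD of libraries 1 to 5. The summed level was 3911 to 5242 CPM in Noggin 1 to 5 and 11491 to 13447 CPM in PBS 1 to 5, while the diamonds lie at 11659 CPM (labelled Noggin 6) and 4644 CPM (labelled PBS 6).

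The most abundant member was ENSGALG00010011141. Its level was 655, 628, 680, 614 and 812 CPM in Noggin libraries 1 to 5. In PBS libraries 1 to 5 it was 1734, 1588, 1979, 1964 and 2005 CPM. The lowest PBS library was thus 1.96 times the highest Noggin library. The Noggin mean was 678 ± 79.3 CPM and the PBS mean 1854 ± 184 CPM (SD, n = 5 each), with a mean difference of -1.45 in log2(CPM + 1). In the libraries that the rule did not use, the order was the opposite, with 1822 CPM under the label Noggin 6 and 647 CPM under the label PBS 6.

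The largest fall was that of ENSGALG00010008416, the third most abundant member. It stood at 298, 218, 290, 199 and 288 CPM in Noggin libraries 1 to 5 and at 987, 861, 1036, 1102 and 1157 CPM in PBS libraries 1 to 5. Its means were 259 ± 46.5 CPM and 1029 ± 114 CPM (SD, n = 5 each), a PBS level 3.98 times that with Noggin. Its difference of -1.999 in log2(CPM + 1) lay at the edge of the rule. The lowest PBS library was 2.89 times the highest Noggin library. Labelled Noggin 6 held 1010 CPM and labelled PBS 6 held 265 CPM, each within the range of the other group.

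The members covered a wide range of abundance. Their means over the 10 libraries ran from 5.48 to 1266 CPM with a median of 18.8 CPM, against a median of 24.7 CPM over the 10195 genes. A total of 62 members lay below 20 CPM, 38 between 20 and 100 CPM, and 16 at 100 CPM or more. The share of genes that were members was 1.44%, 0.811% and 1.31% in these ranges. The differences were close to the upper bound of the rule for many members, with a median of -1.27 and quartiles of -1.49 and -1.13 in log2(CPM + 1). As a ratio of group means, PBS was 1.99 to 4.78 times Noggin, with a median of 2.59.

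Values just inside and just outside the rule were close to each other. At the bound of -1 the nearest member differed by -1.002 and the nearest gene left out by -0.996. At the bound of -2 the nearest values were -1.999 inside and -2.05 outside, and at the floor of 5 CPM they were 5.48 CPM inside and 4.998 CPM outside. A further 39 genes had a mean difference in the same range and at least 5 CPM, but their groups overlapped in numbers 1 to 5.

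**Figure D2:**
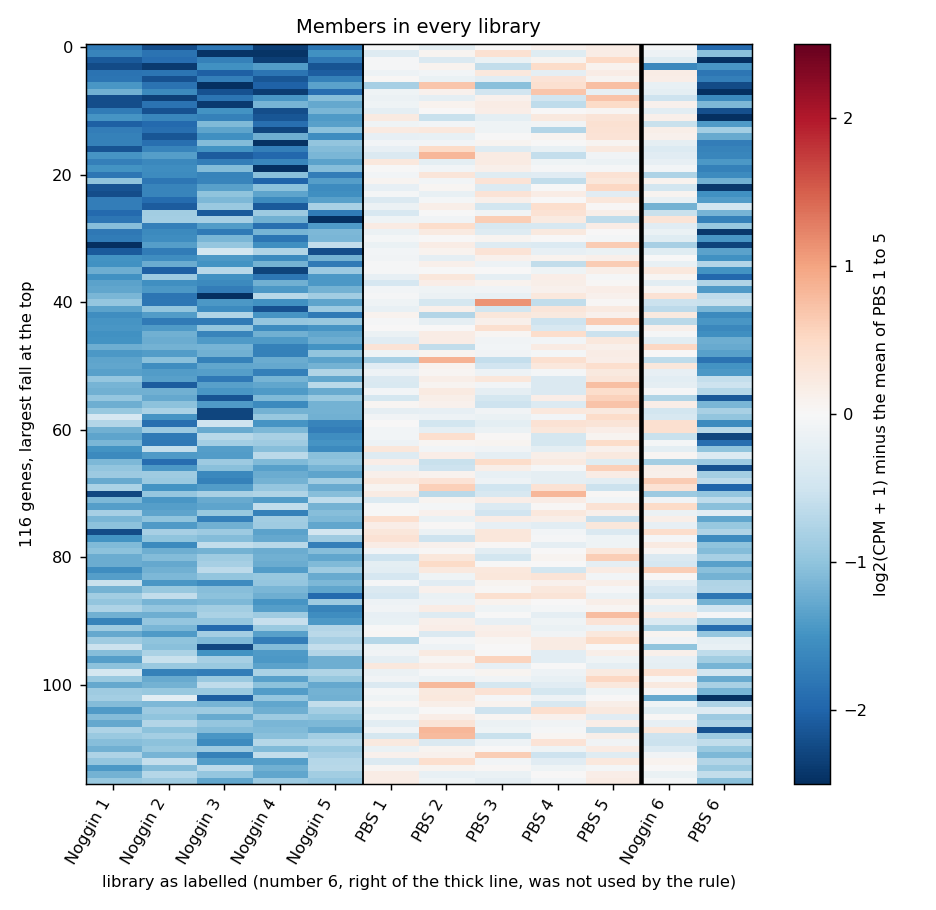
Each row is one of the 116 members (largest fall at the top) and each column a library as labelled; colour is log2(CPM + 1) minus the gene's mean in PBS 1 to 5. Noggin 1 to 5 are blue in every row, as the rule requires, and right of the thick line the library labelled Noggin 6 resembles the PBS columns in most rows and that labelled PBS 6 the Noggin columns.

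The gap between the groups was narrow for many members. The lowest PBS library was 1.02 to 3.10 times the highest Noggin library, with a median of 1.47. It was more than 1.5 times as high in 53 members and more than 2 times in 11. The rule required separation in these same libraries, so the counts are a description, and their share over all genes was not computed. The widest gap belonged to the 29th most abundant member, which stood at 23.0, 23.3, 19.8, 23.2 and 19.5 CPM with Noggin and at 77.3, 80.8, 102, 72.4 and 96.3 CPM with PBS. Its lowest PBS value was 3.10 times its highest Noggin value. The narrowest gap was that of the 111th, whose Noggin 3 library held 5.45 CPM and whose PBS 2 library held 5.58 CPM.

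Depth limits how firmly single members can be read. The median member had 28 reads in a Noggin library and 54.5 in a PBS library. In 32 of the 116, the exact 95% Poisson interval of the highest Noggin library ended below that of the lowest PBS library, as it did in 0.628% of the 10195 genes, or 64 genes. The rule used these libraries, so nothing is read from the difference. The 32 were 14 of the 16 members at 100 CPM or more, 17 of the 38 between 20 and 100 CPM, and 1 of the 62 below 20 CPM. Such intervals cover counting error only. No member had a library at 0 reads in numbers 1 to 5, and 4 had a Noggin library with at most 3 reads. The standard error of the difference, from limma on log2(CPM + 1), had a median of 0.27 below 20 CPM and 0.13 at 100 CPM or more.

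**Figure D3:**
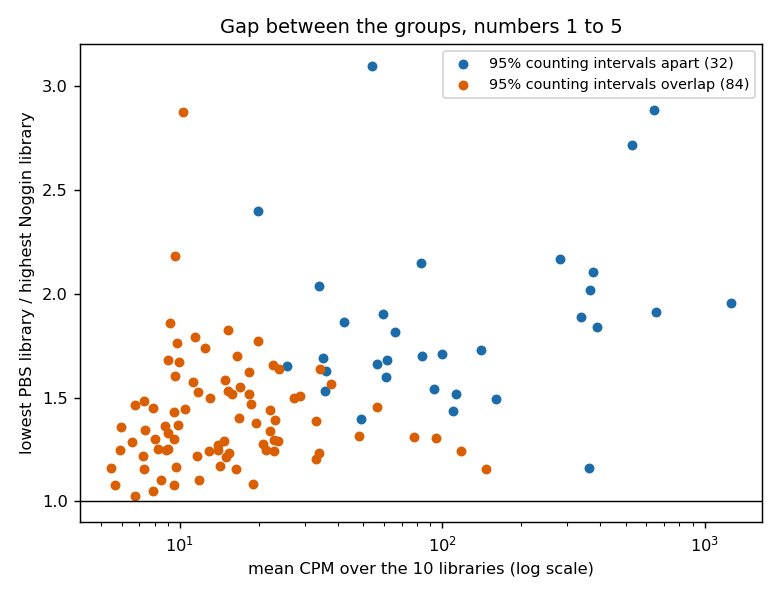
Ratio of the lowest PBS library to the highest Noggin library (vertical axis) against the mean CPM over the 10 libraries (horizontal axis, log scale) for the 116 members; blue points have 95% counting intervals that lie apart (32), orange points intervals that overlap (84). Blue points are mostly those above 20 CPM, and no point lies below 1 because the rule requires separation.

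In the model of numbers 1 to 5 over all 10195 genes, 116 of 116 members passed an adjusted p of 0.05 with a lower level under Noggin (limma, Benjamini-Hochberg), where 4.05% of all genes did. Complete separation in this direction was found in 3.96% of all genes. Both the rule and this model used the same contrast, so nothing is read from the members' count.

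The libraries numbered 6 gave the same measure in samples whose values did not enter the rule. They had been set aside after their values were seen, so the direction below was known beforehand and the counts are a description. In 113 of 116 members the library labelled Noggin 6 was higher than that labelled PBS 6, whereas the share over all 10195 genes was 49.8%. It was more than 2-fold higher in 64 members (3.5% of all genes) and more than 2-fold lower in 0 (3.4% of all genes), on the log2(CPM + 1) scale. With 1 library per group these counts have no test. The median difference in number 6 was 1.10 over the members, from -0.82 to 3.33, and -0.0012 over all genes. Their summed level reached 11659 CPM under the label Noggin 6 and 4644 CPM under the label PBS 6. The first of these sums lay inside the range of PBS 1 to 5 and the second inside the range of Noggin 1 to 5. Their ratio, 2.51, was slightly under the 2.57 to 3.17 of numbers 1 to 5 and in the opposite direction.

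The reversal held at each level of abundance. Below 20 CPM, 59 of 62 members were higher in the library labelled Noggin 6, with a median difference of 1.01. Between 20 and 100 CPM it was 38 of 38, with a median of 1.03, and at 100 CPM or more 16 of 16, with a median of 1.42. In 82 members (70.7%) the library labelled Noggin 6 reached at least the lowest of PBS 1 to 5, against 81.8% of all genes. In 87 members (75%) the library labelled PBS 6 was at or below the highest of Noggin 1 to 5, against 84.8% of all genes. Both held in 58 members (50%) and in 68.8% of all genes. The members' shares lie below those over all genes, most of which have groups that overlap. Of the members, 27 had the library labelled Noggin 6 in the gap between the groups and 7 had it no higher than the highest of Noggin 1 to 5.

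The 3 members that were not reversed in number 6 were weakly expressed, being the 87th, 94th and 95th in abundance. These were singled out after their values were seen. The 87th held 6.16 CPM under the label Noggin 6 and 11.7 CPM under the label PBS 6. The 94th held 5.65 and 9.93 CPM, and the 95th 4.11 and 4.75 CPM. These values stand on few reads, 1 read being worth 0.514 CPM in the first library and 0.432 CPM in the second. The 87th and 94th were the 2 genes that met the rule when it was applied to all 12 libraries as labelled.

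Sets of genes next to the rule were also read in number 6. Of the 39 genes whose groups overlapped, 31 were higher in the library labelled Noggin 6, with a median difference of 0.79. All 19 genes lowered by more than 4-fold in numbers 1 to 5 were higher there, with a median of 1.82. Of 104 genes raised by between 2- and 4-fold under the same criteria, 102 were lower in the library labelled Noggin 6, with a median of -1.07. Differences between these sets were not tested.

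**Figure D4:**
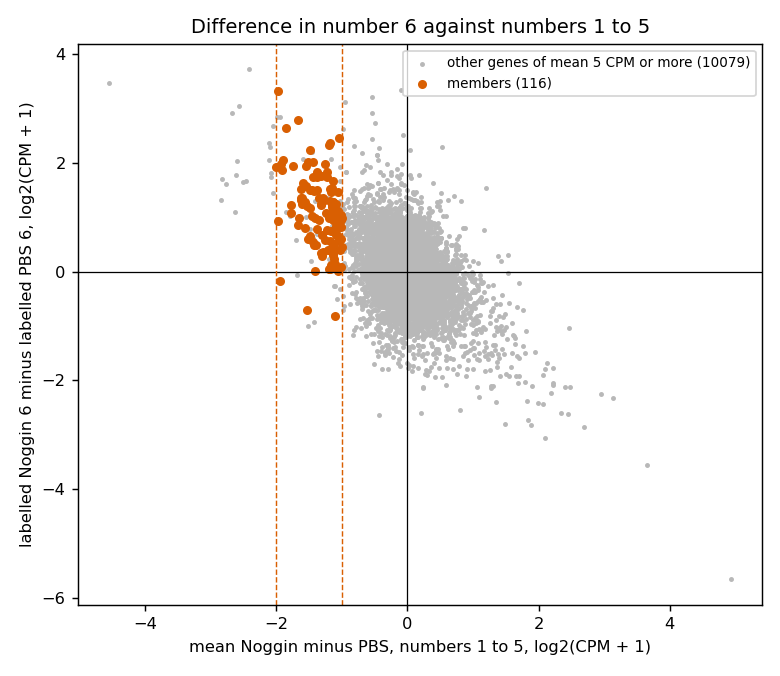
Difference between the libraries labelled Noggin 6 and PBS 6 (vertical axis) against the mean Noggin minus PBS difference in numbers 1 to 5 (horizontal axis), both in log2(CPM + 1), for the 116 members (orange) and the other 10079 genes of mean 5 CPM or more (grey); dashed lines are the bounds of the rule. Of the 116 members 113 lie above 0 on the vertical axis.

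The rule was also applied to 4 of the numbers 1 to 5 and the genes read in the number left out. It took 139, 129, 128, 128 and 123 genes when numbers 1, 2, 3, 4 and 5 were left out. Between 102 and 107 of these were among the 116. In the number left out, 134, 122, 119, 119 and 117 of them were lower with Noggin, that is 93.0% to 96.4%. The share over all genes in those numbers was 53.4%, 45.9%, 49.4%, 46.9% and 47.1%. More than 2-fold lower were 74, 85, 74, 80 and 81, against 5.03%, 4.4%, 4.65%, 3.52% and 3.75% of all genes. The median difference in the number left out was -1.04 to -1.28, and in the 4 numbers that chose the genes -1.26 to -1.28. Number 6 had been set aside after its values were seen, which favours likeness among the other numbers.

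Members differed in how evenly they fell across the numbers. A fall of more than 2-fold was seen in 79, 93, 82, 85 and 91 of the 116 in numbers 1 to 5, and in 29 members it was seen in each of the 5. Over all genes it was seen in 3.52% to 5.03% per number, with the floor of 5 CPM taken over the other 4 numbers. The share of all genes with such a fall in each of the 5 was not computed, so the 29 have no yardstick. The rule used these same values, so the counts and the likeness of the medians below are a description. The median difference per number was -1.24, -1.40, -1.26, -1.28 and -1.35 in log2(CPM + 1), with a SD of 0.07 over the 5 numbers. For single members it ranged from -3.06 in number 4 to -0.10 in number 5.

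Within a group, single libraries stood apart for some members. The rule used these same libraries, and a low Noggin library can help a gene to be taken where a low PBS library hinders it. The shares below are therefore a description. PBS 2, for example, lay more than 1.5 times below the nearest other PBS library in 1.72% of members, against 4.34% of all genes. Noggin 3 lay more than 1.5 times below the nearest other Noggin library in 11 members (9.48%), against 2.69% of all genes. It was the shallowest of Noggin 1 to 5, with 2019491 reads, and the part of depth in this was not tested. Noggin 4 stood below in the same way in 5 members (4.31%), against 1.29% of all genes. One of them was the 7th most abundant, with 190, 182, 252, 79.5 and 255 CPM in Noggin 1 to 5 and 514 to 588 CPM in PBS 1 to 5. Another was the 9th, with 154, 135, 238, 89.5 and 253 CPM in Noggin 1 to 5 and 479 to 527 CPM in PBS 1 to 5. The highest Noggin library was 3.20 and 2.83 times the lowest in these genes, and the highest PBS library 1.14 and 1.10 times the lowest. The 12th showed the converse, with 78.3, 94.8, 60.4, 82.0 and 76.6 CPM under Noggin and 109, 359, 129, 258 and 221 CPM under PBS. Its lowest PBS library was 1.16 times its highest Noggin library. These 3 were chosen after their values were seen.

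The coefficient of variation among the 5 libraries of a group had a median of 26.4% with Noggin and 21.1% with PBS over the members. Over all 10195 genes it was 17.3% and 19.9%. The members' levels were lower with Noggin, where counting error is larger relative to the level, and its part in this spread was not tested. The variance of the reads relative to that expected from counting alone had a median of 2.01 with Noggin and 2.69 with PBS over the members, and 2.16 and 2.18 over all genes.

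The replicate number was associated with the level of 7 of the 116 members, most of them abundant. An F test of the number in a model with the bead, over numbers 1 to 5, called 7 of 116 members (6.03%) at an adjusted p of 0.05 (limma), against 2.34% of all genes. The rule used the same libraries, so this share is a description. Of the 7, 1 was among the 62 members below 20 CPM, where 1.26% of all genes were called. Another 1 was among the 38 between 20 and 100 CPM, where 2.45% were. The other 5 were among the 16 members at 100 CPM or more, where 5.74% of all genes were called. The second most abundant member was one of them (adjusted p = 0.00336, limma), with 330, 392, 350, 346 and 399 CPM in Noggin 1 to 5 and 763, 1054, 874, 887 and 1114 CPM in PBS 1 to 5. Its libraries numbered 2 and 5 were the highest of both groups. The 8th was another (adjusted p = 0.00128, limma), with 229, 221, 215, 197 and 318 CPM in Noggin 1 to 5 and 492, 539, 513, 370 and 533 CPM in PBS 1 to 5. Libraries numbered 4 were its lowest in both groups. The members called were 10, 3, 5, 4 and 2 when numbers 1, 2, 3, 4 and 5 were left out. All genes called in the same fits were 253, 71, 246, 193 and 237, against 239 with every number kept. Without number 5, the 2 of 116 members were a smaller share than the 237 of 10198 genes, so the larger share among members was not kept.

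Over all members, the highest Noggin and the highest PBS library carried the same number in 36 of 116 (31.0%). This number was 5 in 18 of the 116 (15.5%). Noggin 5 was the highest Noggin library in 38 members and PBS 5 the highest PBS library in 47. Counts of this size alone bring number 5 together in some members, and their part in the 18 was not tested. Their shares over all genes were not computed. The rule used these libraries, so the shares in this paragraph are a description. Among all genes the highest libraries carried the same number in 24.6%, and the number 5 in 5.46%. The lowest libraries of the groups carried the same number in 26 members (22.4%), against 24.3% of all genes.

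With all 12 libraries as labelled, 4 of the 116 members passed an adjusted p of 0.05 with a lower level under Noggin (limma), where 0.0589% of all genes did, or 6 genes. All 116 had a negative difference. Because 10 of the 12 libraries are those that chose them, this sign follows from the rule and nothing is read from it. An unadjusted p below 0.05 was found in 95 of the 116 members and in 1418 of the 10195 genes, in either direction (limma). This comparison shares 10 libraries with the rule and is a description. The 4 were the 35th, 55th, 94th and 95th in abundance. The 35th stood at 19.2 to 24.8 CPM in Noggin 1 to 5 and 37.9 to 58.9 CPM in PBS 1 to 5, and at 36.5 and 28.9 CPM in the libraries labelled Noggin 6 and PBS 6. Its difference as labelled was -0.87 in log2(CPM + 1) (adjusted p = 0.0378, limma). The 55th stood at 8.91 to 12.0 CPM and 21.3 to 32.9 CPM in numbers 1 to 5, and at 24.1 and 16.8 CPM in number 6, a difference as labelled of -1.09 (adjusted p = 0.0433, limma). The 94th and 95th are among the 3 that were not reversed in number 6. ENSGALG00010011141 and ENSGALG00010008416, whose libraries numbered 6 lay inside the range of the other group, had differences as labelled of -0.95 and -1.33 with adjusted p-values of 0.261 and 0.239 (limma).

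The call as labelled depended on single libraries. With the replicate number as a block, 0 members and 0 genes passed (limma, with an unadjusted p below 0.05 in 62 members and 1342 genes). When 1 library of numbers 1 to 5 was dropped, whichever it was, the fit also gave 0 members and 0 genes (limma, 76 to 82 members and 1149 to 1306 genes at an unadjusted p below 0.05). Without the library labelled Noggin 6, 82 members passed, among 519 genes of which 199 were lower with Noggin. Without that labelled PBS 6, 83 members passed, among 659 genes of which 231 were lower. Both fits hold the 10 libraries that chose the members, so these counts are a description.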

How the data were processed

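The 12 libraries of chicken interdigital tissue each took 180 ng of RNA and followed Lasy-Seq 1.1, a multiplexed RNA-seq method, per the labels' protocols. Tools named without a role in the submitters' processing notes are BWA 0.7.17-r1188, fastp 0.21.0 and Salmon. Build, annotation and counting options: not given in the sources used here. The deposited table holds natural log values: the exponential minus 1 summed to 1000000 in each column, and was read as CPM. All values above 0 were then whole multiples of 1 read (100%, tolerance 0.001 read), so reads were recovered. A count of 0 would allow 0.854 to 1.85 CPM (3 reads, counting error only).

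The members and lists were chosen with earlier results of these data known. Columns were matched to samples by library code. Members were chosen on log2(CPM + 1) without rescaling. Models used limma 3.58.1 in R 4.3.3 on log2(CPM + 1), pseudocount 1, after scaling by trimmed means of M-values (TMM, 30% and 5% trimmed, factors 0.981 to 1.03), with trend and robust shrinkage, over the 10195 genes of mean 5 CPM or more in numbers 1 to 5. All 116 members meet this floor by the rule. P-values were adjusted by Benjamini-Hochberg at 0.05. A count model was planned only for a table of counts, and limma otherwise. The steps were tested on simulated data.

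The members given by identifier are the most abundant and the one with the largest fall, a rule set for the case that no symbols can be paired. Gene lists and cell type markers were not used. Deviations of same-numbered libraries from their group means correlated at 0.102 to 0.431 over these genes in numbers 1 to 5. Each was above 0.1, the limit for reading the numbers as pairs, with the lowest value close to it. Over the members alone the correlations were -0.0719 to 0.227, against at most 0.138 for libraries of different numbers. The members thus do not show the pairing in each number. Number 6 as labelled lay at -0.135 over all tested genes. The main models had no block, as designed, and took no account of the likeness of same-numbered libraries. With the block, 1485 genes passed in numbers 1 to 5, 564 of them lower with Noggin (limma). Without it 1110 passed, 413 of them lower (limma). The 2 beads were placed in opposite limbs, per the labels, which do not say that a number is an embryo. Separate embryos are not stated either, so p-values cover only the spread between libraries, which may be technical. No library duplicated another (chi-square per degree of freedom at least 2.83 over 66 pairs). Alternatives were other scaling, pseudocounts and floors, limma-voom on the recovered reads, limma without its robust option, the replicate block and single libraries left out.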

Additional observations from a re-analysis of the deposited data

Results flagged for a closer look

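Of 18 groups of 5 or 6 values examined for a single distant value, 7 held one. All 7 concern number 6 as labelled, so they are not independent of each other. The members were chosen to separate in numbers 1 to 5, and number 6 was set aside after its values were seen. The rate of about 1 in 20 that chance gives is therefore no yardstick here, and the 7 are a description. The summed level of the 116 members in the library labelled Noggin 6 (11659 CPM) stood apart from Noggin 1 to 5, and that in the library labelled PBS 6 (4644 CPM) from PBS 1 to 5. ENSGALG00010011141 stood apart in the same libraries, at 1822 CPM and 647 CPM. ENSGALG00010008416 did so at 1010 CPM and 265 CPM. The median difference of the members, 1.10 in number 6, stood apart from -1.40 to -1.24 in numbers 1 to 5. No value among the libraries numbered 1 to 5 alone was distant by this measure in these groups.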

How the results depend on the processing

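The rule took 83 to 156 genes under TMM scaling, pseudocounts of 0.5 and 4 and floors of 1 and 10 CPM, each within 1.5 times of 116, and 115 to 132 with 1 library left out. The genes themselves varied more: with a pseudocount of 4, 70 of the 83 were among the 116, under TMM scaling 110 of 112, with a pseudocount of 0.5 111 of 117, and with 1 library left out 103 to 112. Applied to all 12 libraries as labelled, an alternative chosen after seeing the data, it took 2 genes. The median difference in number 6 was 1.06 to 1.14 under the pseudocounts and floors and 1.18 under TMM scaling. Over the 5 numbers left out in turn, 94.4% of the genes taken were lower with Noggin (93.0% to 96.4% by number), and under TMM scaling 95.03% (92.6% to 96.7% by number). In numbers 1 to 5, 1110 genes passed in either direction (limma), 981 to 1164 under other scaling, pseudocount, floor, tool and shrinkage, 908 to 1128 with 1 library left out, and 1485 with the replicate block, which called 116 of 116 members. As labelled, 12 genes passed, 29 with a pseudocount of 4, 27 with a floor of 1 CPM, 0 with the replicate block (limma, 1342 at an unadjusted p below 0.05), 0 without limma's robust option (chosen after seeing the data, 1451 at an unadjusted p below 0.05, and 16 by limma-voom with it), and 0 to 659 with 1 library left out. Members among them were 4, and 1 to 6 under the other pseudocounts and floors. The number effect was called in 239 genes, and in 71 to 253 with a number left out, lowest without number 2. The cause was not tested. Each of these fits held fewer libraries than the main one, whichever number was left out, and the others called 193 to 253 genes. Members below 20 CPM are limited by depth. On the recovered reads limma-voom was run, and edgeR and DESeq2 were not.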
